A study of Sus scrofa with 6 samples.

Results

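The 4 genes described here act on the deposition of calcium phosphate mineral. They are MGP (matrix Gla protein), SPP1 (osteopontin), BMP7 (bone morphogenetic protein 7) and ALPL (tissue-nonspecific alkaline phosphatase). They were taken by name: every probe set, other than the array's controls, whose platform annotation gives 1 gene symbol and that symbol is one of the 4. Each gene had 1 such probe set, so the set holds 4 genes of the 6765 that the annotation names in this way.

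RNA came from porcine aortic valve leaflets of adult female animals, with the endothelium taken off by collagenase before culture in medium with serum. The normotensive group was held at a cyclic pressure of 0 to 80 mmHg and the hypertensive group at 0 to 120 mmHg, both for 24 h at 1 Hz, with 3 arrays in each. The series asks how raised diastolic pressure changes expression in the leaflet. The leaflet was under pressure outside the animal. The labels call the samples biological replicates but do not say whether they came from separate pigs. The p-values thus measure only the spread between these samples, which may in part be technical.

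Soft tissue calcifies when the balance between mineral inhibitors and the machinery of bone formation shifts. MGP is a small matrix protein that needs vitamin K-dependent carboxylation to bind mineral, and it also binds bone morphogenetic proteins (BMPs). Osteopontin is an acidic phosphoprotein that coats crystals and slows their growth, although it is also made by osteoblasts and macrophages. ALPL splits pyrophosphate, itself an inhibitor of mineral, and so frees phosphate for crystals. BMP7 signals through receptor kinases and SMAD proteins and drives bone formation in the skeleton, while in arteries it has been described as opposing calcification, so its place among the promoters rests on its role in bone. The aortic valve interstitial cell, the fibroblast-like cell of the leaflet, is the cell usually studied in calcific valve disease.

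The labelled tissue was checked against its markers. A probe set was tested when its mean log2 signal lay at or above the 40th percentile of all probe sets, a signal of 48.5, called the filter level here. Of 10 annotated interstitial cell markers 9 passed the filter, with vimentin (VIM) at a mean signal of 23586 under normotensive pressure and decorin (DCN) at 12913. As means over the 6 arrays, all 7 annotated muscle markers and all 3 adipocyte markers lay under the filter level. So did 7 of 13 endothelial markers, among them CDH5 and VWF. Single arrays could lie above the level. The muscle marker CNN1 did on all 3 normotensive arrays, and ACTC1 (muscle) and FABP4 (adipocyte) on 2 of them. CDH5 was above it on all 3 hypertensive arrays. The other 6 endothelial markers passed, with ERG at 1504 and PECAM1 at 629 under normotensive pressure. Of 11 annotated macrophage and leukocyte markers 10 passed, with CTSS at 9777 and CD163 at 1636. Over kept probe sets, hypertensive replicate 1 correlated least with the normotensive arrays (mean Pearson r 0.817) and hypertensive replicate 2 most (0.950).

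At hypertensive pressure the inhibitor MGP had 0.49 times its normotensive signal, and its 3 arrays lay below all 3 normotensive arrays. The inhibitor SPP1 had a slightly higher signal on all 3 hypertensive arrays. BMP7 was under the filter level on each normotensive array and above it on each hypertensive array. ALPL was under the filter level on all 6 arrays. None of these differences passed the genome-wide threshold, an adjusted p of 0.05 (limma with Benjamini-Hochberg adjustment), and neither did any other of the 14399 probe sets tested (0%).

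**Figure D1:**
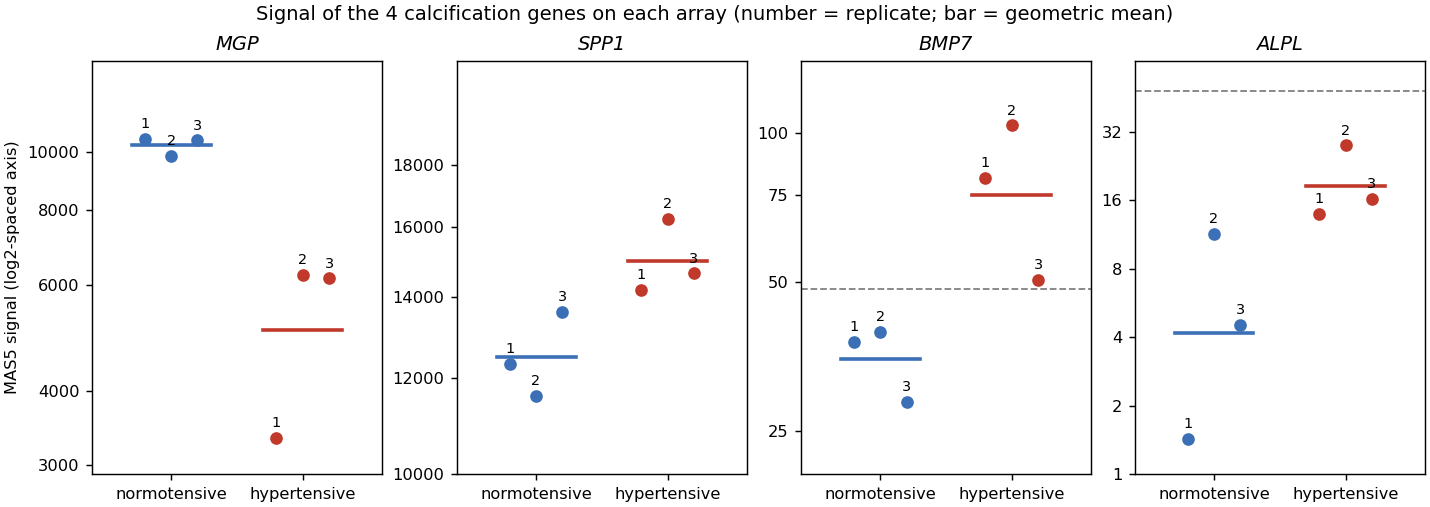
MAS5 signal of MGP, SPP1, BMP7 and ALPL on each array, on a log2-spaced axis whose range differs between panels. Points are arrays, numbers are replicates, bars are geometric means and the dashed line is the filter level of 48.5. MGP is lower on all 3 hypertensive arrays, SPP1 and BMP7 are higher on all 3, and ALPL lies under the dashed line throughout.

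MGP had signals of 10530, 9880 and 10474 on normotensive replicates 1, 2 and 3. On hypertensive replicates 1, 2 and 3 it had 3336, 6235 and 6157. The normotensive arrays lay close together, the hypertensive arrays were more spread, and the groups did not overlap. The lowest normotensive signal was 1.58 times the highest hypertensive one. The geometric means were 10290 and 5041, a log2 difference of -1.03 (SE 0.26, 95% confidence interval -1.62 to -0.44, n = 3 arrays per group, limma adjusted p = 0.235). The normotensive mean was thus 2.04 times the hypertensive one. The unadjusted limma p was 0.00375, in a table where 16.9% of tested probe sets had an unadjusted p under 0.05, 9.53% on the lower side. Probe sets with all hypertensive arrays below all normotensive arrays made up 12% of those tested. MGP shared a separation of this kind with many probe sets of these arrays.

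The difference in MGP rested on no single array. Without hypertensive replicate 1, the array with the lowest MGP signal, the log2 difference was -0.73, and without any other array it lay between -1.18 and -1.01. Hypertensive replicate 2, which resembled the normotensive arrays most across all probe sets, had an MGP signal at the level of replicate 3. Without that array MGP passed the threshold (limma adjusted p = 0.0158), as did 3513 of the 14399 probe sets.

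Each of the 9 kept interstitial cell markers had a lower mean in the hypertensive group, as MGP did, and 0 passed the adjusted threshold. Their median log2 difference was -0.53, against -0.04 over all kept probe sets, where 47.3% were above 0. That median was -0.32 without hypertensive replicate 1 and -0.71 without normotensive replicate 3. The groups did not overlap in 2 of the 9, LUM and POSTN, both lower, where 12% of tested probe sets were lower without overlap, and the other 7 overlapped. The summed signal of the 9 was between 79898 and 83747 in the normotensive group and between 54582 and 69257 in the hypertensive group. In whole leaflets, fewer cells of a type and less RNA per cell cannot be told apart, and the part of these markers in the MGP difference was not tested.

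SPP1 had signals of 12334, 11599 and 13611 on normotensive replicates 1 to 3, and of 14206, 16265 and 14651 on the hypertensive ones. The groups did not overlap, but the gap was narrow, since the lowest hypertensive signal was 1.04 times the highest normotensive one. The geometric means were 12487 and 15016, a log2 difference of 0.27 (SE 0.14, n = 3 arrays per group, limma adjusted p = 0.348), or 1.20 times the normotensive mean. The 95% confidence interval ran from -0.05 to 0.58 on the log2 scale, which is 0.96 to 1.50 times the normotensive mean. With quantile normalization the log2 difference was 0.10. All hypertensive arrays above all normotensive ones was the case for 10.4% of tested probe sets.

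Osteopontin is also a product of macrophages. The 10 kept macrophage and leukocyte markers had a median log2 difference of -0.57, with 4 higher and 6 lower means and 0 past the adjusted threshold. Without hypertensive replicate 1 that median was -0.0045, with 5 higher and 5 lower, and with each gene's kept probe sets averaged it was -0.21. Their summed signal was between 12612 and 15960 under normotensive pressure and between 13092 and 14051 under hypertensive pressure, inside the normotensive range, and CTSS made up most of it. With overlapping groups, CD163 was at 1636 and 751, MRC1 at 1226 and 625, C1QA at 293 and 152 and FCER1G at 216 and 107. A dimmer CD163 probe set was at 65.3 and 114. ITGB2 was at 159 and 139, CTSS at 9777 and 10854 and TYROBP at 140 and 146, also with overlap. The pan-leukocyte gene PTPRC was at 77.6 and 31.0, lower without overlap. The leukocyte gene CORO1A was at 71.4 and 123, higher without overlap. A second CORO1A probe set went the other way, at 137 and 58.4 with overlapping groups. CD14 was at 40.7 and 73.8 with overlapping groups, and ITGAM was under the filter level. PTPRC passed the filter only through its normotensive arrays and CD14 only through its hypertensive ones, so both means had to differ. The part of these markers in the SPP1 signal was not tested.

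BMP7 had signals of 37.8, 39.6 and 28.6 on normotensive replicates 1 to 3, each under the filter level. On the hypertensive replicates it had 81.2, 103.8 and 50.5, each above it, with replicate 3 just over the line. The groups did not overlap, and the lowest hypertensive signal was 1.27 times the highest normotensive one. The hypertensive mean of 75.2 was 1.55 times the filter level, a ratio that ran from 1.32 to 1.89 when hypertensive arrays were left out in turn. The filter level is a percentile and not a detection limit, so this ratio sets no bound on the fold between the groups. The fitted log2 difference was 1.10 (SE 0.40, 95% confidence interval 0.19 to 2.01, n = 3 arrays per group, limma adjusted p = 0.269), at a signal so low that its size depends on the scale used. The unadjusted limma p was 0.0230, and 7.39% of tested probe sets had one under 0.05 on the higher side. Because BMP7 passed the filter only through its hypertensive arrays, it had to differ, and this p is not a fair test of it. A brighter probe set carries the symbols of both BABAM1 and BMP7 and so was not counted for BMP7. Its means were 262 and 312, with overlapping groups.

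ALPL had signals of 1.42, 11.4 and 4.52 on normotensive replicates 1 to 3 and of 13.9, 27.9 and 16.2 on the hypertensive ones. Every hypertensive value lay above every normotensive value, but all 6 lay under the filter level. No detection calls were used to tell such low signals from background, so no fold is given. In a fit with no filter, over 23999 probe sets, its unadjusted limma p was 0.0405 and its adjusted p 0.367. The normotensive arrays alone spanned 1.42 to 11.4. At this sensitivity neither a change in ALPL nor its absence could be detected.

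**Figure D2:**
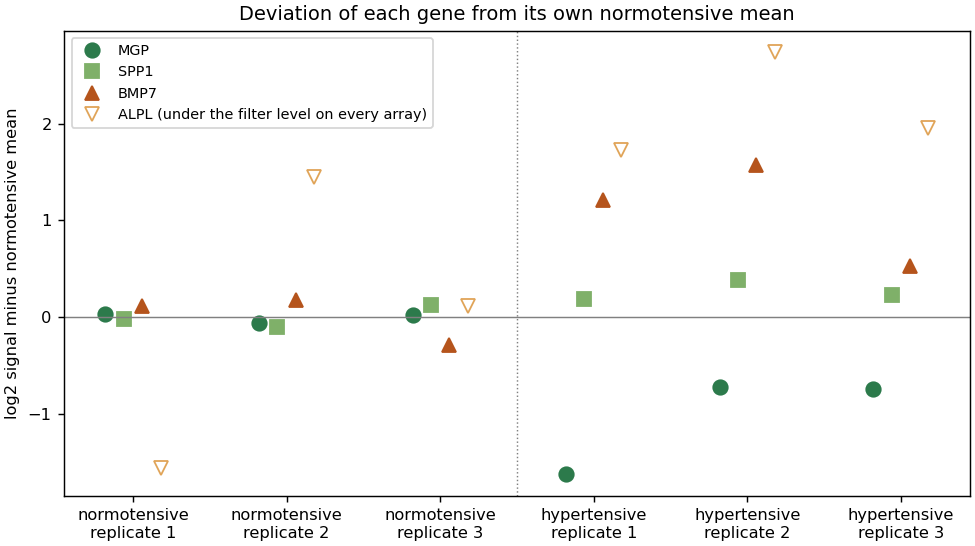
Log2 signal of each gene minus its own normotensive mean (vertical axis) on the 6 arrays (horizontal axis). MGP lies at -1.62, -0.72 and -0.74 on hypertensive replicates 1 to 3, while SPP1 (0.19 to 0.38) and BMP7 (0.53 to 1.57) lie above 0. ALPL, with open symbols, was under the filter level on every array.

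Set side by side, the inhibitors did not move as a pair. MGP lay 0.72 to 1.62 below its normotensive mean on the log2 scale on the 3 hypertensive arrays, and SPP1 0.19 to 0.38 above its own. Of the promoters, BMP7 lay 0.53 to 1.57 above its normotensive mean, and ALPL lay under the filter level on every array. The direction of each of MGP, SPP1 and BMP7 was the same on all 3 hypertensive arrays. This follows from groups that did not overlap, as was the case for 22.5% of tested probe sets in either direction.

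The genes also differed in which array stood out. MGP was lowest on hypertensive replicate 1, as were 74.7% of the 1733 kept probe sets whose hypertensive arrays all lay below the normotensive ones. SPP1 and BMP7 were highest on hypertensive replicate 2. Among the 1501 kept probe sets whose hypertensive arrays all lay above, replicate 2 was highest in 10.5% and replicate 1 in 72.6%. This is a description of 6 arrays, with no test.

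The genes with signals most like each gene were named by the Pearson correlation of log2 signal over the 6 arrays, among kept probe sets with 1 symbol. MGP was followed most closely by CCDC34 (r = 0.997), by RRM2, a subunit of ribonucleotide reductase (0.994), and by NLN, the peptidase neurolysin (0.994), although the log2 difference of NLN was only -0.17 against -1.21 for CCDC34 and -2.88 for RRM2. SPP1 was followed by TTC38 (0.975), CAMLG (0.969) and FZD4, a Wnt receptor (0.967). BMP7 was followed by KDM2A, a histone demethylase (0.995), by ACVR1B, an activin receptor (0.987), and by the serine protease PRSS23 (0.987). For ALPL the closest were PLRG1, ZNF34 and CPSF7, at 0.984, 0.966 and 0.960, from signals under the filter level. These likenesses rest on 6 arrays in 2 groups, so any pair of genes that separate the groups shares much of its variation, and they are given with no test.

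The wider set of mineral inhibitors held 7 kept genes of 8 annotated, with 0 past the adjusted threshold. Their median log2 difference was 0.07, against -0.04 over all kept probe sets, with 5 higher and 2 lower means. Beside MGP, the other lower gene was GAS6, a vitamin K-dependent ligand of the TAM receptor kinases. It had 273, 361 and 214 on the normotensive and 107, 128 and 151 on the hypertensive arrays, without overlap (log2 difference -1.11, SE 0.31, limma adjusted p = 0.239). ENPP1, the enzyme that makes extracellular pyrophosphate, had means of 1867 and 1966, with hypertensive signals of 1009, 2203 and 3418 on either side of the normotensive range. ABCC6, a transporter linked to ATP release, had a log2 difference of 0.51 and overlapping groups. DKK1, a secreted Wnt inhibitor, was under the filter level.

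The wider set of promoters held 6 kept genes of 10 annotated, with a median log2 difference of 0.05, 3 higher and 3 lower means, and 0 past the adjusted threshold. ALPL shared its place under the filter level with the osteoblast transcription factor SP7 and the bone matrix genes BGLAP (osteocalcin) and IBSP (bone sialoprotein), a neighbour of SPP1 in RefSeq's pig gene table. DLX5, a homeobox factor of bone, had a log2 difference of -0.74 and BMP4 one of -0.02, both with overlapping groups. ATF4, a stress-induced transcription factor, was at 0.26 and PHOSPHO1, a phosphatase of matrix vesicles, at -0.22. SPARC, or osteonectin, a collagen-binding glycoprotein, had hypertensive signals all above the normotensive ones, with means of 16317 and 17768. RUNX2, BMP2, MSX2 and SLC20A1 had no probe set named for them alone in the annotation and were not analysed here.

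**Figure D3:**
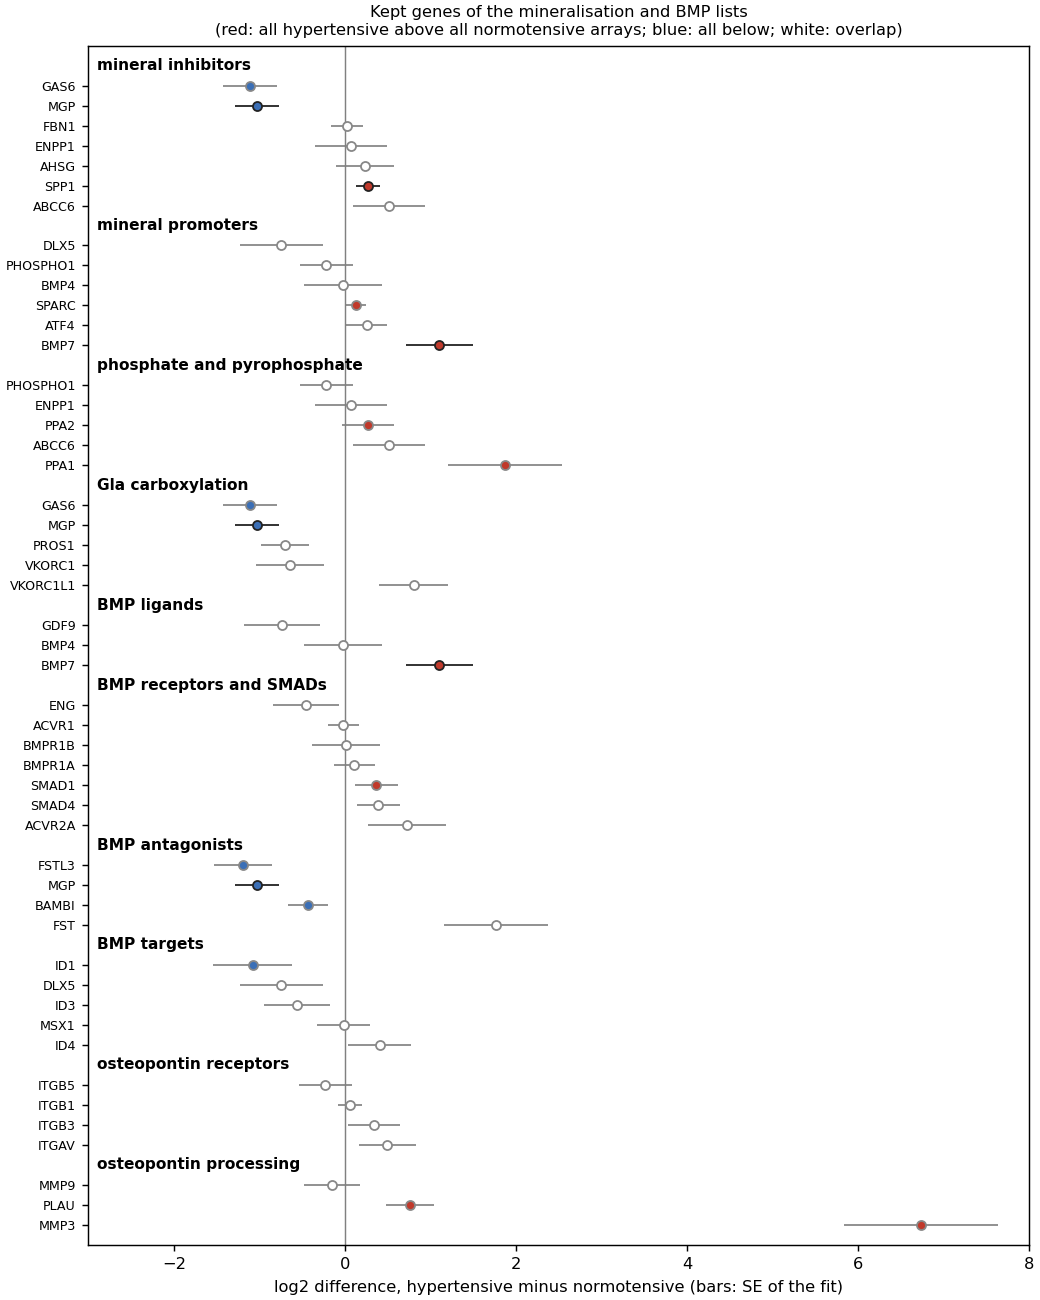
Log2 difference, hypertensive minus normotensive, with the SE of the fit (n = 3 arrays per group), for kept genes of the mineralisation and BMP lists. Filled symbols mark genes whose groups did not overlap, red higher and blue lower, and a gene on several lists is drawn in each. MGP lies beside GAS6 on the lower side, BMP7 and PPA1 on the higher side, and the wider lists of inhibitors and promoters lie on both sides of 0.

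Genes that handle phosphate and pyrophosphate, the substrate of ALPL, held 5 kept genes of 7 annotated, of which 4 had higher means, with 0 past the adjusted threshold. PPA1, the cytosolic pyrophosphatase, had 1966, 1609 and 1952 in the normotensive group and 20438, 2320 and 6360 in the hypertensive group. Its hypertensive signals were all higher but very uneven, at 3.66 times the normotensive mean with all arrays. That fold was 2.09 when hypertensive replicate 1 was left out and 6.21 when replicate 2 was (limma adjusted p = 0.269). PPA2, the mitochondrial pyrophosphatase, was at 69.2 and 83.4, also without overlap. ENTPD1, which breaks down extracellular ATP, was under the filter level.

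MGP works only after its glutamate residues are carboxylated. Of the 6 annotated genes of this system 5 were kept, 4 of them with lower means, with a median log2 difference of -0.70 and 0 past the adjusted threshold. Leaving out any 1 array kept that count at 4 of 5, and the median between -0.99 and -0.46. Beside MGP and GAS6, PROS1, the vitamin K-dependent protein S of coagulation, had a log2 difference of -0.70 (limma adjusted p = 0.282) with overlapping groups. VKORC1, which recycles vitamin K, was at -0.65 and its paralog VKORC1L1 at 0.80, both with overlapping groups. In this list 3 of 5 genes had an unadjusted p under 0.05 on the lower side, where the table as a whole had 9.53%. The 3 are the carboxylated proteins MGP, GAS6 and PROS1, and MGP was itself the starting point of the list. The kept enzymes VKORC1 and VKORC1L1 were not among them. GGCX, the carboxylase itself, had no probe set named for it alone and was not analysed here.

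Of the BMP ligands beside BMP7, BMP4 had signals of 569, 410 and 459 on the normotensive and 788, 565 and 229 on the hypertensive arrays, on both sides of the normotensive range. GDF9 was at 115 and 69.3 with overlapping groups, and BMP15 under the filter level. Receptors and SMADs held 7 kept genes of 8 annotated, with 5 higher means and a median log2 difference of 0.11, with 0 past the adjusted threshold. The BMP receptor BMPR1A had means of 2157 and 2323, and ACVR1, a receptor that BMP7 uses, 5566 and 5482. SMAD1, which carries the BMP signal to the nucleus, had 756, 916 and 796 on the normotensive and 1010, 1174 and 998 on the hypertensive arrays. Its groups did not overlap (log2 difference 0.37, limma adjusted p = 0.435). ACVR2A and SMAD4 had log2 differences of 0.72 and 0.39, and ENG one of -0.46, all with overlapping groups.

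Genes that restrain BMP signalling held 4 kept genes, MGP among them, and 0 passed the adjusted threshold. In 3 of the 4 all hypertensive arrays lay below all normotensive arrays, where the table as a whole had 12%. MGP is among the 3 and was itself the starting point, so only FSTL3 and BAMBI are further genes. Leaving out 1 array could not lower the count of 3, and the median log2 difference over the 4 was -0.73. With each gene's kept probe sets averaged the median was -0.39, with 2 higher and 2 lower means. FSTL3, which binds activins and some BMPs, had 385, 279 and 299 on the normotensive and 97.5, 143 and 192 on the hypertensive arrays (log2 difference -1.19, SE 0.34, limma adjusted p = 0.239). BAMBI, a decoy receptor, was at 2175 and 1612 (log2 difference -0.43), but a dimmer probe set of BAMBI had means of 79.5 and 151. The fourth gene went the other way. FST, follistatin, had 57.2, 105 and 42.0 on the normotensive and 420, 87.4 and 270 on the hypertensive arrays (log2 difference 1.76, SE 0.61, limma adjusted p = 0.269), with hypertensive replicate 2 inside the normotensive range. The hypertensive mean of FST was 3.40 times the normotensive mean, and 5.33 times when hypertensive replicate 2 was left out. NOG, CHRD, GREM1 and SMAD6 had no probe set of their own name and were not analysed here.

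Of the ID genes, which SMAD1 switches on, only ID1 among those kept had groups that did not overlap. It had 2009, 2008 and 1864 on the normotensive and 422, 1608 and 1168 on the hypertensive arrays, without overlap (log2 difference -1.08, SE 0.46, limma adjusted p = 0.291). Its array order was that of MGP in that replicate 1 was lowest. ID3 was at 11835 and 8038 and ID4 at 85.4 and 113, both with overlapping groups. ID2 was under the filter as a mean, with 20.9, 4.01 and 50.2 in the normotensive and 78.6, 124 and 28.5 in the hypertensive group. The homeobox gene MSX1 was at 156 and 154. Over the 5 kept targets the median log2 difference was -0.56, with 4 lower and 1 higher mean and 0 past the adjusted threshold.

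Of the osteopontin receptors 4 of 6 annotated genes were kept, all with overlapping groups, and 0 passed. The integrin subunit ITGAV had means of 3093 and 4361 (log2 difference 0.50), ITGB3 761 and 961, ITGB1 9647 and 10041, and ITGB5 1802 and 1536. Like SPP1, ITGAV, ITGB1 and ITGB3 had their highest signal on hypertensive replicate 2, with 7126 for ITGAV. Among enzymes that act on osteopontin or on its activators, 3 genes were kept and 0 passed the adjusted threshold. MMP3 and PLAU had higher signals on all hypertensive arrays, as did 10.4% of tested probe sets, and MMP3 passed the filter only through its hypertensive arrays, so it had to differ. The stromelysin MMP3, which cleaves osteopontin, did not reach the filter level in the normotensive group and had 14136, 797 and 3135 in the hypertensive group (limma adjusted p = 0.115). The plasminogen activator PLAU was at 2474 and 4179 (log2 difference 0.76, limma adjusted p = 0.273), and MMP9 at 67.3 and 60.8.

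Cartilage markers, which mark another route to mineral, held 5 kept genes of 8 annotated, with 3 higher and 2 lower means and 0 past the adjusted threshold. Their median log2 difference of 0.24 turned to -0.42 without normotensive replicate 2. COMP, a cartilage matrix glycoprotein, had a log2 difference of 0.96 and HAPLN1, which links hyaluronan to aggrecan, one of -0.49, both with overlapping groups, and COL10A1 was under the filter level. Blood markers held 2 kept genes, with a median log2 difference of 0.46. The 6 kept endothelial markers had a median log2 difference of -0.27, and their summed signal was between 2474 and 3058 in the normotensive group and between 1988 and 3838 in the hypertensive group. Of these 6 markers 5 had lower means, among them ERG without overlap, and 0 passed the adjusted threshold. SELP, the P-selectin gene, was at 128 and 872, higher without overlap. CDH5, under the filter as a mean, had 30.3, 12.3 and 40.6 in the normotensive and 68.4, 115 and 84.9 in the hypertensive group. SELE, also under it, had 1.11, 4.50 and 1.62 in the normotensive and 443, 64.6 and 29.3 in the hypertensive group. Of the others under it, KDR, CLDN5, TIE1 and NOS3 had higher hypertensive means and VWF a lower one, all with overlapping groups. The part of these markers in the values of the 4 calcification genes was not tested. GAPDH, a control, had a log2 difference of 0.11 and ACTB one of 0.32, both with overlapping groups.

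The groups did not overlap in 22.5% of tested probe sets, counted in either direction, and the separation of MGP, SPP1 and BMP7 is to be read against that share. BMP7 passed the filter only through its hypertensive arrays, so it had to differ. The plot of the log2 differences under each alternative shows that no alternative turned the sign for these 3 genes. Leaving out arrays could not turn it, since their groups did not overlap.

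**Figure D4:**
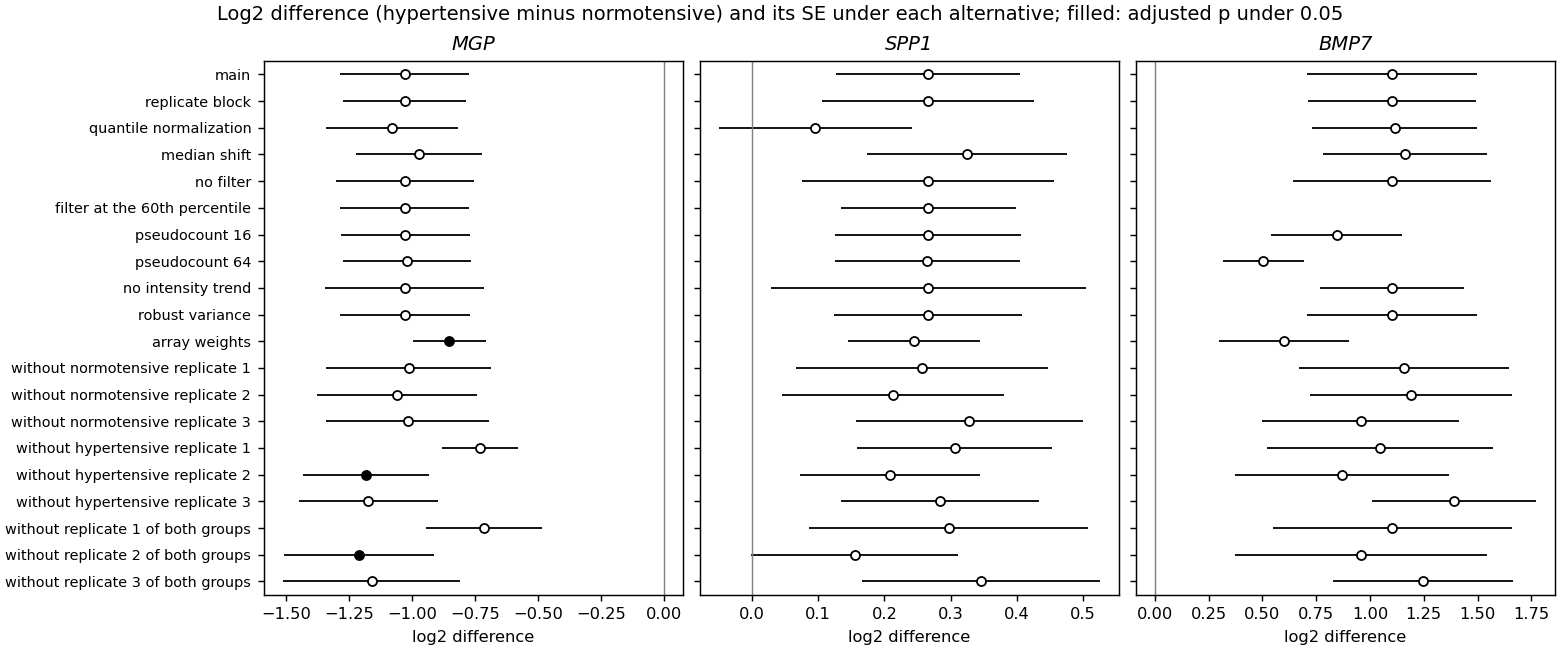
Log2 difference, hypertensive minus normotensive, of MGP, SPP1 and BMP7 (horizontal axis, range differs between panels) with its SE under the fit as reported and each alternative (vertical axis). Filled points have an adjusted p under 0.05, which MGP reaches with array weights and in both settings without hypertensive replicate 2, and SPP1 and BMP7 in none.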

How the data were processed

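Transcript levels were read from 6 Affymetrix Porcine Genome Arrays, 3 per group, hybridised with 10 µg of cRNA amplified from 70 ng of total RNA, per the labels. The deposited intensity values are linear signals, 1 per probe set and array. GCOS and MAS5 were the authors' software per the submitters' processing notes (versions: not given in the sources used here). On all 6 arrays the 2% trimmed mean was 500.11 to 500.131, so each had been scaled to 1 level, which removes any difference in total RNA. Detection calls and saturation flags did not enter, and precision is limited by the number of arrays.

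Of 24123 probe sets, 124 controls were left out. Of the other 23999, 10069 had 1 symbol in the platform annotation, 198 several and 13732 none. Of those with 1 symbol 9961 matched RefSeq's pig gene table (Sscrofa11.1) by gene ID, and 0 symbols changed. On log2 intensity with no pseudocount, the 14399 probe sets with a mean at or above the 40th percentile were fitted with limma 3.58.1 in R 4.3.3 (lmFit, eBayes with trend, 2-sided, Benjamini-Hochberg over all kept probe sets, threshold 0.05). A gene under the filter was taken from the same fit with no filter. The brightest probe set stood for a gene, and means of signals are geometric. The fit was tested on simulated data. Permuting 3 against 3 arrays exactly reaches no p under 0.1, and was not done.

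Named genes were the 4 genes, up to 4 of smallest unadjusted p per list, direct partners of the 4, and the 3 closest patterns of each; other list genes were named after their values were seen. The 4 genes and all lists were chosen with earlier results of these data known. Alternatives were a replicate block, a median shift or quantile normalization, a 60th percentile filter or none, pseudocounts of 16 and 64, array weights, variance models with no trend or made robust, and arrays left out. The correlation of deviations between arrays of the same number was 0.06, 0.07 and 0.23, not over 0.1 in every pair, so the numbers were not taken to pair the samples.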

Additional observations from a re-analysis of the deposited data

How the results depend on the processing

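The sign of the log2 difference was kept in each alternative that gave a value, 19 for MGP and SPP1 and 18 for BMP7. Leaving out arrays could not turn it, since the groups did not overlap. The replicate block, the filters and the variance models left the estimate itself unchanged. ALPL, under the filter level, is given no size. The 60th percentile filter left out BMP7 and ALPL. MGP ran from -1.21 to -0.72 (-0.73 without hypertensive replicate 1 alone), SPP1 from 0.10 to 0.35 and BMP7 from 0.50 to 1.39. Adjusted p of SPP1 and BMP7 stayed above 0.05, at 0.0737 and 0.140 or more. MGP passed with array weights (log2 difference -0.85, adjusted p = 0.00196), where 5639 probe sets passed, without hypertensive replicate 2 (-1.18) and without replicate 2 of both groups (-1.21, adjusted p = 0.0416). When arrays were left out, the count of probe sets past the threshold ran from 0 to 3513 and was 1995 without replicate 2 of both groups and 1 without normotensive replicate 2. With the replicate number as a block, 0 probe sets passed and MGP had an adjusted p of 0.154. The BMP7 difference of 1.10 was 0.84 and 0.50 with pseudocounts of 16 and 64 and 0.60 with array weights. Each gene has 1 probe set, so the alternatives of other probe sets and of their mean could not be run. Left-out arrays for the lists and for the ratio of BMP7 to the filter level were chosen after seeing the data. Low signal limits BMP7 and ALPL, and array number limits all 4.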
